A study of Mus musculus with 2 samples.

Results

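The 6 genes described here, Gzmb, Gzma, Gzmk, Prf1, Nkg7 and Ccl5, belong to the killing and secretory program of cytotoxic lymphocytes, and they were examined in CD3-positive cells sorted as regulatory T cells (Tregs) from mouse skin and lung. All 6 are among the 27514 gene identifiers that the annotations of both libraries list. Cells entered when Cd3d, Cd3e and Cd3g, which encode chains of the T cell receptor complex, gave at least 1 unique molecular identifier (UMI, the tag that counts each captured RNA molecule once) in sum. This held for 6012 of the 6601 barcodes in skin and 7841 of the 8730 in lung, after barcode filtering and removal of likely doublets. The skin library came from adult back skin of Foxp3-CreERT2GFP C57Bl/6 mice and the lung library from adult lung of Foxp3-GFP C57Bl/6 mice (the labels add Tachilla strain). Both tissues were digested with collagenase, and cells carrying GFP, CD4, CD3 and CD45 were sorted, so that in each group a reporter of Foxp3, the transcription factor that defines Tregs, set the gate. No treatment is labelled in either group. There was 1 library per tissue, so no difference below has a replicate check and no test was possible. Tissue, mouse strain, library and annotation version differ together and cannot be told apart.

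Granzymes are serine proteases stored in lysosome-like granules and released toward a target cell. Granzyme B cleaves caspases and other substrates and starts apoptosis, granzyme A acts by other routes, and granzyme K is typical of less differentiated effector cells. Perforin, encoded by Prf1, forms the pores through which granzymes reach the cytosol of the target. NKG7 is a granule membrane protein that takes part in granule exocytosis, and CCL5 is a chemokine that cytotoxic and memory T cells secrete and that binds receptors such as CCR1 and CCR3. Granzyme B is also known from activated mouse Tregs, in which it has been linked to suppression.

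Gzmb (ENSMUSG00000015437) lies on chromosome 14 at 56258838 to 56262260 on the minus strand of GRCm38. Gzma (ENSMUSG00000023132) and Gzmk (ENSMUSG00000042385) are neighbours on chromosome 13, at 113093825 to 113100981 and 113171608 to 113225908 on the minus strand. Prf1 (ENSMUSG00000037202) is on chromosome 10 at 61297833 to 61304680 and Nkg7 (ENSMUSG00000004612) on chromosome 7 at 43437073 to 43438249, both on the plus strand. Ccl5 (ENSMUSG00000035042) is on chromosome 11 at 83525778 to 83530518 on the minus strand.

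The stretches before the RefSeq starts of Gzmb, Nkg7 and Prf1 are shown because Gzmb and Nkg7 were the members furthest on the skin side and Prf1 was on the lung side. Each begins 250 bases before the RefSeq start. The Gzmb stretch runs up to that start, and the Nkg7 and Prf1 stretches stop where the GENCODE gene begins. They are chr14:56262335-56262584 on the minus strand, chr7:43436888-43437072 on the plus strand and chr10:61297586-61297832 on the plus strand of GRCm38.p6, written 5′ to 3′ in the direction of transcription. Capitals mark matches, on either strand, to TGANTCA, the core of AP-1 sites (AP-1 is the Fos and Jun factor family, with which BATF dimerizes), and to TGTGGT, the core of RUNX sites.
Gzmb: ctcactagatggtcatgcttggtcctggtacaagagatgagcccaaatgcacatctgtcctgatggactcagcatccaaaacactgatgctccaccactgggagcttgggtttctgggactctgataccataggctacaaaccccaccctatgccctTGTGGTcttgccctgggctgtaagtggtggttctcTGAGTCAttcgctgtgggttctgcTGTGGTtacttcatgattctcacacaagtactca
Nkg7: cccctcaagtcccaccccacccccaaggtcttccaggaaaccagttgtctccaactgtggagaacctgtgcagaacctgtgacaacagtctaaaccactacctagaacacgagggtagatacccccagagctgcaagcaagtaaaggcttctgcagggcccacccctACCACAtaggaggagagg
Prf1: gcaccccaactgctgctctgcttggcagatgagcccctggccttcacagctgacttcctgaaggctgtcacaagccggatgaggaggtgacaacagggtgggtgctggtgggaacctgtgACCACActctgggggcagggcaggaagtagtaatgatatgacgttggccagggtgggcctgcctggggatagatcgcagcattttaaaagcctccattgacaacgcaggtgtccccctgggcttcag

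The Gzmb stretch held 1 AP-1 match, whose first base lies 58 bases before the start, and 2 RUNX matches, at 93 and 34 bases. The Nkg7 stretch held 1 RUNX match at 83 bases and the Prf1 stretch 1 at 130 bases, and neither held the AP-1 letters. No marked match overlaps another. Of 32851 RefSeq promoters, 6.75% held the AP-1 letters and 14.0% the RUNX letters in their first 250 bases. Over the 185 bases shown for Nkg7 the RUNX share was 10.7%, and over the 247 shown for Prf1 it was 13.9%. The T-box letters AGGTGTGA were found in none of the 3 stretches and in 1.12% of all promoters over 250 bases.

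The CD3-positive cells gave 14487161 UMIs in skin and 21487514 in lung over the shared genes, with a median of 2041 and 2338 UMIs per cell. Levels are given as CPM, UMIs of a gene scaled to the same total in both libraries, with 95% Poisson intervals that cover counting error only, as do all intervals below. Genes of the gate were present in both libraries: Cd4 stood at 164 CPM in skin and 108 in lung, and Foxp3, a low message in this assay, at 23.7 and 13.1 CPM, with a UMI in 5.44% of skin cells and 3.49% of lung cells. Of 6 Treg markers (Foxp3, Il2ra, Ctla4, Ikzf2, Tnfrsf18 and Tnfrsf4), at least 2 were detected at 1000 UMIs per cell in 87.5% of skin cells and 39.4% of lung cells that lacked a Gzmb UMI. Of the CD8 list, Cd8a had 1 UMI in skin and 28 in lung, and Cd8b1 had 164 UMIs in 158 skin cells and 470 UMIs in 389 lung cells. Of the 7 NK genes, Klrk1 had the most UMIs, 50 in skin and 10 in lung, and none of the others had more than 3 UMIs in skin or 7 in lung, Ncr1 giving 0 and 3. The 2 libraries share 82 barcodes.

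Gzmb differed most between the tissues among the 3 members with substantial counts. It stood at 185 CPM in skin (178 to 192), with 2680 UMIs in 823 cells, against 6.79 CPM in lung (5.74 to 7.99), with 146 UMIs in 65 cells. The ratio of skin over lung was 27.2 (23.0 to 32.4), 4.77 on the log2 scale. A Gzmb UMI was thus found in 13.7% (12.8 to 14.6) of skin cells and 0.829% (0.640 to 1.06) of lung cells. In cells with a Foxp3 UMI alone the log2 ratio was 4.79, from 145 UMIs in 327 skin cells and 5 UMIs in 274 lung cells.

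Nkg7, the granule membrane gene, was also higher in skin, by a smaller factor. It stood at 168 CPM (161 to 175) in skin, with 2434 UMIs in 1071 cells, against 31.3 CPM (29.0 to 33.8) in lung, with 673 UMIs in 270 cells. The ratio was 5.36 (4.92 to 5.85), 2.42 on the log2 scale. The share of cells with a UMI was 17.8% (16.9 to 18.8) in skin and 3.44% (3.05 to 3.87) in lung. In cells with a Foxp3 UMI the log2 ratio was lower, at 1.45, from 146 skin and 51 lung UMIs.

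Ccl5, the chemokine gene, did not keep a direction. It stood at 130 CPM (124 to 136) in skin, with 1886 UMIs in 697 cells, against 96.9 CPM (92.8 to 101) in lung, with 2083 UMIs in 313 cells, a ratio of 1.34 (1.26 to 1.43), 0.43 on the log2 scale. A single skin cell held 673 of the skin UMIs, 35.7% of them, and the next cell held 28. That cell had 8452 UMIs in all, 6 of them of CD3 genes and 11 of the Treg markers, with none of the CD8 or NK lists. Without the cell richest in Ccl5 in each library the log2 ratio was −0.14, an alternative added after the data were seen. In cells with a Foxp3 UMI it was 2.20, from 96 skin and 20 lung UMIs. It was 1.31 in the 5278 skin and 5119 lung cells with no CD8 or NK UMI and fewer than 2 UMIs of each non-T list. The lung cells also had no UMI of the gamma-delta T cell list, a filter that could not be applied in skin.

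Perforin message was scarce in both tissues and was on the lung side. Prf1 gave 20 UMIs in 20 skin cells, 1.38 CPM (0.843 to 2.13), against 82 UMIs in 80 lung cells, 3.82 CPM (3.04 to 4.74). It was 2.76-fold (1.68 to 4.76) higher in lung than in skin. No skin cell held more than 1 Prf1 UMI and no lung cell more than 2. At 1000 UMIs per cell, 0 of the 474 skin cells with Gzmb held Prf1, where 0.552 were expected from the shares of the 2 genes.

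The other granzymes among the members were close to the detection limit of 3 counts, 0.207 CPM in skin and 0.140 CPM in lung. Gzma gave 1 UMI in skin against 27 UMIs in 19 lung cells, 1.26 CPM (0.828 to 1.83), a level 18.2-fold higher in lung with a counting interval of 3.0 to 745. The lung cell richest in Gzma held 6 of these UMIs together with 16 UMIs of the NK list and none of the Treg markers. Gzmk was not detected in skin, where 0 of 6012 cells allows at most 0.207 CPM, and gave 4 UMIs in 2 lung cells. The lung cell with 3 of the 4 Gzmk UMIs was also the one richest in Nkg7, with 24 UMIs, and it held 22 CD8 UMIs and no Treg marker.

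**Figure D1:**
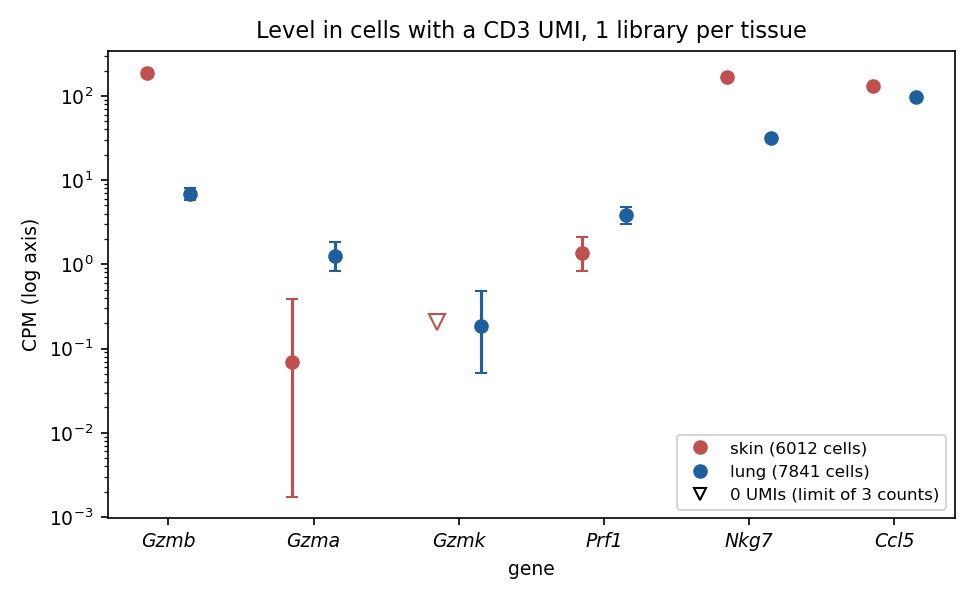
Level of the 6 genes in CD3-positive cells of skin (left point of each pair) and lung (right point), in CPM on a log axis, with 95% Poisson intervals, 1 library per tissue. Gzmb and Nkg7 lie higher in skin, Prf1 and Gzma higher in lung, and the open triangle marks the limit of 3 counts for Gzmk in skin, where no UMI was found.

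Of the 6 members, 3 reached 20 CPM in either library and could be counted against the other genes. Gzmb reached it in skin alone, so it entered only through the tissue where it was high. On a log2 scale with 5 added to each CPM, which shrinks the ratios of low genes, 2 of these 3 were at least 2-fold higher in skin, Gzmb and Nkg7, where 15.2% of 5686 genes were. None was at least 2-fold higher in lung, where 4.96% were, and Ccl5 was within 2-fold. Over all of them the log2 ratio had a median of 0.37. With median-of-ratios scaling the median was 0.00 and 505 genes lay on the skin side against 473 on the lung side, in place of 865 and 282, and without mitochondrial and ribosomal protein genes in the total there were 594 and 610. These genes took 22.1% of UMIs in skin and 40.8% in lung. Under these scalings the log2 ratio was 4.40 and 4.37 for Gzmb, 2.05 and 2.03 for Nkg7, and 0.056 and 0.029 for Ccl5.

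Shares of cells were next compared at equal depth, with every cell thinned to 1000 UMIs. No skin cell and 76 lung cells were too shallow for this and were left out. Gzmb was then found in 474 skin cells, 7.88% (7.22 to 8.59), against 27 lung cells, 0.348% (0.229 to 0.506). Nkg7 was found in 10.8% (10.0 to 11.6) of skin cells and 1.69% (1.41 to 2.0) of lung cells. Ccl5 was found in 6.14% (5.54 to 6.77) and 2.15% (1.84 to 2.50). All 3 were thus in a larger share of skin cells, Ccl5 included, whose summed levels were within 2-fold.

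Free RNA can place UMIs in cells that do not express a gene, so the same shares were taken in cells rich in fibroblast or endothelial RNA (at least 20 UMIs of those marker lists). These were 73 skin cells with a median of 6068 UMIs and 76 lung cells with a median of 3239, a comparison added after the data were seen. At 1000 UMIs, Gzmb was in 4.11% (0.856 to 11.5) of the skin cells and 0 of the lung cells, where 0 of 76 allows up to 3.95%. Nkg7 was in 2.74% (0.334 to 9.55) and 0, and Ccl5 in 0 (allowing up to 4.11%) and 1.32% (0.0333 to 7.11). Of the 73 skin cells 41 also held Cd3d, at 179 CPM, and of the 76 lung cells 20 did. These sets were taken without regard to CD3, so they hold T cell RNA too and overlap the CD3-positive cells. In skin at most 12 of the 73 lacked a CD3 UMI. In raw CPM, Gzmb stood at 18.3 in the stromal-rich skin cells and Nkg7 at 27.5, against 185 and 168 in the CD3-positive cells of skin, and none of these stromal-rich cells held more than 2 UMIs of either gene. In lung, Nkg7 stood at 17.0 CPM in stromal-rich cells, with its 6 UMIs in 1 cell, and Ccl5 at 198, with 65 of 70 UMIs in 1 cell, against 31.3 and 96.9 in CD3-positive cells. In lung, 134 cells with stromal or epithelial UMIs and no CD3 UMI offered a second comparison, and Ccl5 was in 2.44% (0.506 to 6.96) of the 123 deep enough. In skin just 12 cells were of that kind, and Gzmb was in 0 of them at 1000 UMIs, which allows up to 25%. All 67 skin cells without a CD3 UMI held Gzmb in 8.96% (3.36 to 18.5) at 1000 UMIs and at 90.3 CPM. That share was no lower than in CD3-positive cells. These 67 cells had a median of 1300 UMIs and came from the same sort, so they need not be non-T cells. The intervals of CD3-positive and stromal-rich cells did not overlap for Nkg7 and Ccl5 in skin, and they overlapped for Gzmb in skin and for all 3 genes in lung. The shares of Gzmb in both tissues and of Nkg7 and Ccl5 in lung are not shown to stand above background at this depth. Because the sets overlap, this comparison cannot measure the background for any of the 3 genes. The same limit holds for these genes wherever their detection at 1000 UMIs is set out below, by marker or by pair.

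**Figure D2:**
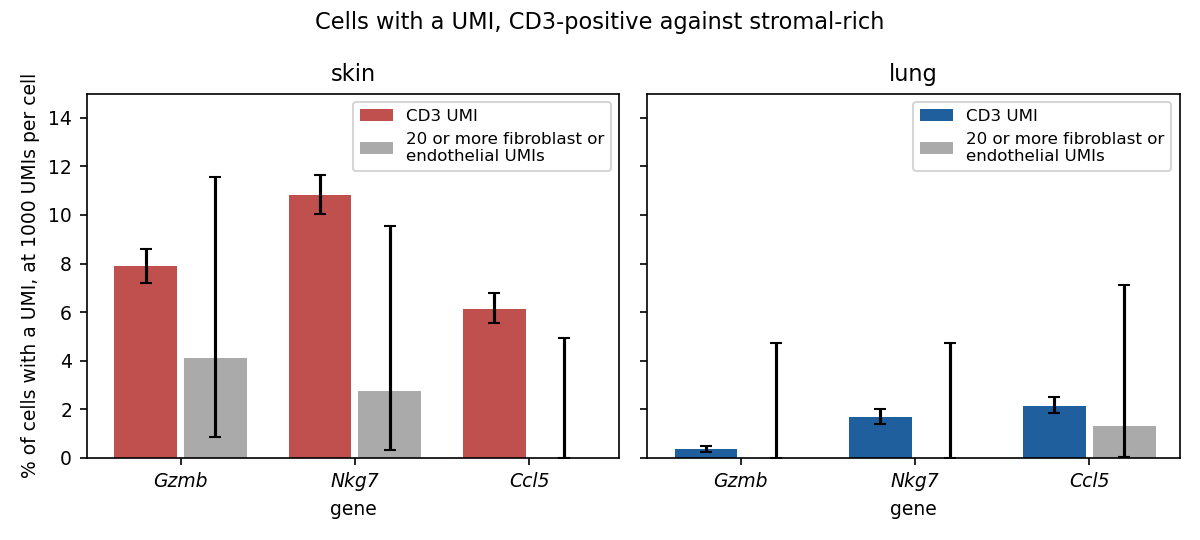
Share of cells with a UMI of Gzmb, Nkg7 and Ccl5 at 1000 UMIs per cell, in percent, for CD3-positive cells (coloured bars) and stromal-rich cells (grey bars) of skin (left panel) and lung (right panel), with exact 95% binomial intervals. Each gene stands between 6.14% and 10.8% in CD3-positive skin cells and between 0.348% and 2.15% in those of lung, and the stromal-rich bars rest on 73 and 76 cells. The sets overlap, since the stromal-rich cells were taken without regard to CD3.

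How the UMIs were spread over cells also differed between the genes. In skin the richest 100 cells held 52.9% of Gzmb UMIs and 36.03% of Nkg7 UMIs. In lung the richest 100 cells held 100% of Gzmb UMIs, 73.3% of Nkg7 UMIs and 88.4% of Ccl5 UMIs. Lung cells with a Ccl5 UMI carried 6.65 UMIs of it on average, against 2.71 in skin, where the single richest cell is included. The richest Gzmb cell held 64 UMIs in skin and 11 in lung.

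**Figure D3:**
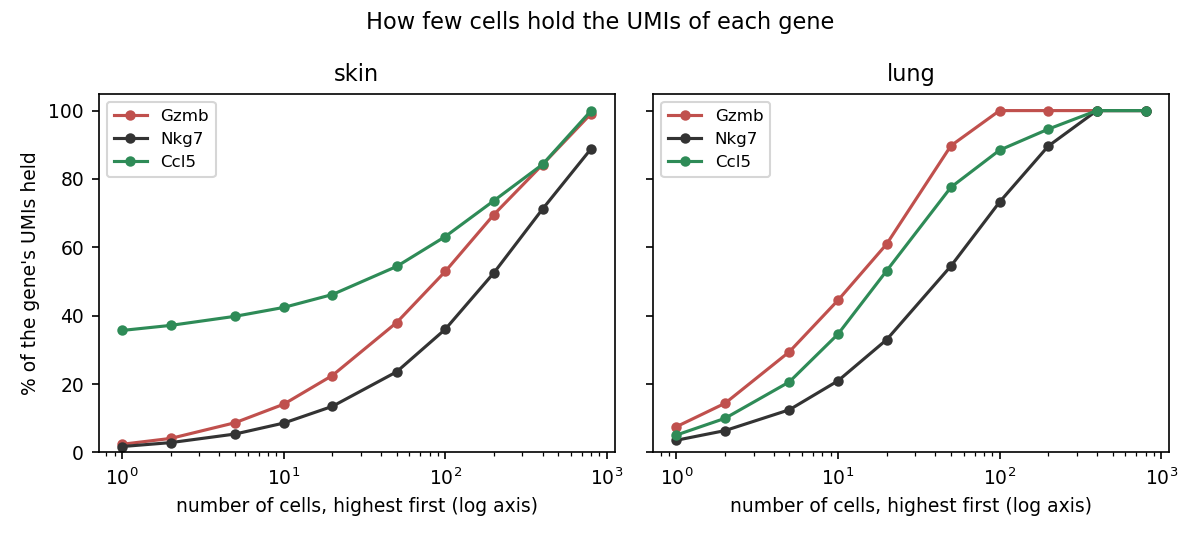
Percent of a gene's UMIs held by its richest cells, against the number of cells on a log axis, for skin (left panel) and lung (right panel). The skin curve of Ccl5 starts at 35.7% because of 1 cell, and the lung curves reach 100% by 400 cells.

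Cells with at least 5 raw UMIs of a gene, a limit chosen after the data were seen, were described separately. There were 146 such cells for Gzmb in skin and 6 in lung, 120 and 39 for Nkg7, and 42 and 69 for Ccl5. Of the 146 skin cells rich in Gzmb, 145 held at least 2 Treg markers, 8 held a Foxp3 UMI, 10 held a CD8 UMI and none an NK UMI. At least 2 Treg markers were also in 97.7% (97.3 to 98.1) of the other skin cells. Cd8b1 was in 2.63% of all CD3-positive skin cells, whose median depth was 2041 UMIs against 2770 for the 146. All 6 lung cells rich in Gzmb held at least 2 Treg markers, with an interval of 54.1% to 100% that includes the 72.2% of the other lung cells. None of the 6 held a CD8, NK or gamma-delta T cell UMI. Of the 69 lung cells rich in Ccl5, 59 held at least 2 Treg markers, or 85.5% (75.0 to 92.8) against 72.1% (71.1 to 73.1) of the other lung cells. Of the 39 lung cells rich in Nkg7, 30 did, 76.9% (60.7 to 88.9) against 72.2%. The lung cells rich in each gene were deeper than average, with a median of 3937.5 UMIs for Gzmb, 4107 for Ccl5 and 5825 for Nkg7. The median over all lung cells was 2338, and the part of depth in these shares was not tested. A UMI of the CD8, NK or gamma-delta lists was present in 13 of the 69 and 11 of the 39. A Foxp3 UMI was present in 1 of the 69, 3 of the 39 and 0 of the 6 lung cells rich in Gzmb, against 3.49% of all CD3-positive lung cells. The gamma-delta genes are listed in the lung annotation alone and were not analysed here for skin.

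At equal depth the Treg markers gave the same picture for lung. At least 1 of the 6 was detected in 96.3% (81.0 to 99.9) of lung cells with Gzmb against 74.7% of the others, and at least 2 in 70.4% (49.8 to 86.2) against 39.4%. For Ccl5 at least 2 were detected in 57.5% (49.6 to 65.1) against 39.1% of the others, and for Nkg7 in 45.0% (36.3 to 54.0) against 39.4%. Foxp3 alone did not show this for Gzmb or Nkg7. Of the 104 lung cells with Foxp3 at this depth, 0 held Gzmb, where 0.352% of the others did. Nkg7 was in 0.962% (0.0243 to 5.24) against 1.70%, and Ccl5 in 3.85% (1.06 to 9.56) against 2.13%. In skin nearly every cell held a Treg marker, 99.2% of cells with Gzmb against 97.5% of the others. Of the 5 lung cells with an NK UMI at this depth, 3 held Nkg7 and 3 held Ccl5. NK-list UMIs were found in 2.29% of lung cells with Nkg7 and 0.0262% of the others.

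The cells that held these genes were then described by 20 markers of T cell state, again at 1000 UMIs. In skin, Gzmb was in 12.9% (10.9 to 15.1) of cells with Ccr2, a receptor gene for inflammatory chemokines, against 6.86% (6.17 to 7.59) of cells without it. It was in 2.81% (1.41 to 4.97) of skin cells with Ccr7, the lymph node homing receptor gene, against 8.24% (7.53 to 8.99) of those without. Cells with Il13, a type 2 cytokine gene, held Gzmb in 10.7% (8.50 to 13.3), against 7.52% (6.82 to 8.26) of cells without. Areg, Klrg1 and Itgae gave smaller differences of the same sign, with ratios of 1.28, 1.32 and 1.23.

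Nkg7 in skin followed Il13, as Gzmb did, and other markers too. It was in 24.0% (14.9 to 35.3) of the 75 skin cells with Cxcr3, the chemokine receptor gene of type 1 T cells, against 10.6% (9.87 to 11.5) of the others. Cells with Il13, Cxcr6 (a receptor gene of tissue-resident T cells) and Il10 (an anti-inflammatory cytokine gene) held it in 14.9%, 12.8% and 13.2%, against 10.3%, 9.56% and 10.2% of cells without each marker. With Ccr7 the share was unlike that of Gzmb, the ratio of shares being 1.02, with an interval of 0.727 to 1.38. Ccl5 in skin was in 17.3% (9.57 to 27.8) of cells with Cxcr3 against 6.00% (5.41 to 6.63) of those without, and in 6.66% of cells with Ikzf2, which encodes the Treg factor Helios, against 4.61%.

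In lung the shares followed markers of effector cells for all 3 genes. Ccl5 was in 12.0% (7.58 to 17.8) of lung cells with Cxcr3 against 1.92% (1.63 to 2.26), in 10.8% (5.90 to 17.8) with Klrg1, an inhibitory receptor gene of terminal effectors, against 2.01%, and in 7.20% (5.43 to 9.34) with S100a4, a calcium-binding protein gene of effector and memory T cells, against 1.63%. Nkg7 was in 6.29%, 6.67% and 4.43% of cells with these 3 markers, against 1.58%, 1.61% and 1.41% of cells without. Gzmb was in 2.29%, 3.33% and 1.52%, against 0.303%, 0.301% and 0.227%, from 4, 4 and 11 cells. Cells with Ccr7 held less of each: Ccl5 was in 1.31% against 2.63%, Nkg7 in 1.06% against 2.04% and Gzmb in 0.177% against 0.445%, although the interval of the Gzmb ratio, 0.118 to 1.08, includes 1. Other markers did not all go with higher shares. Of the 65 lung cells with Itgae, 0 held Gzmb, 0 Nkg7 and 1 Ccl5. With Ccr2, Gzmb was in 2.46% against 0.279% and Ccl5 in 6.15% against 2.02%, but Nkg7 in 1.64% against 1.69%. Gzmb was in 0 of the 242 lung cells with Areg.

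**Figure D4:**
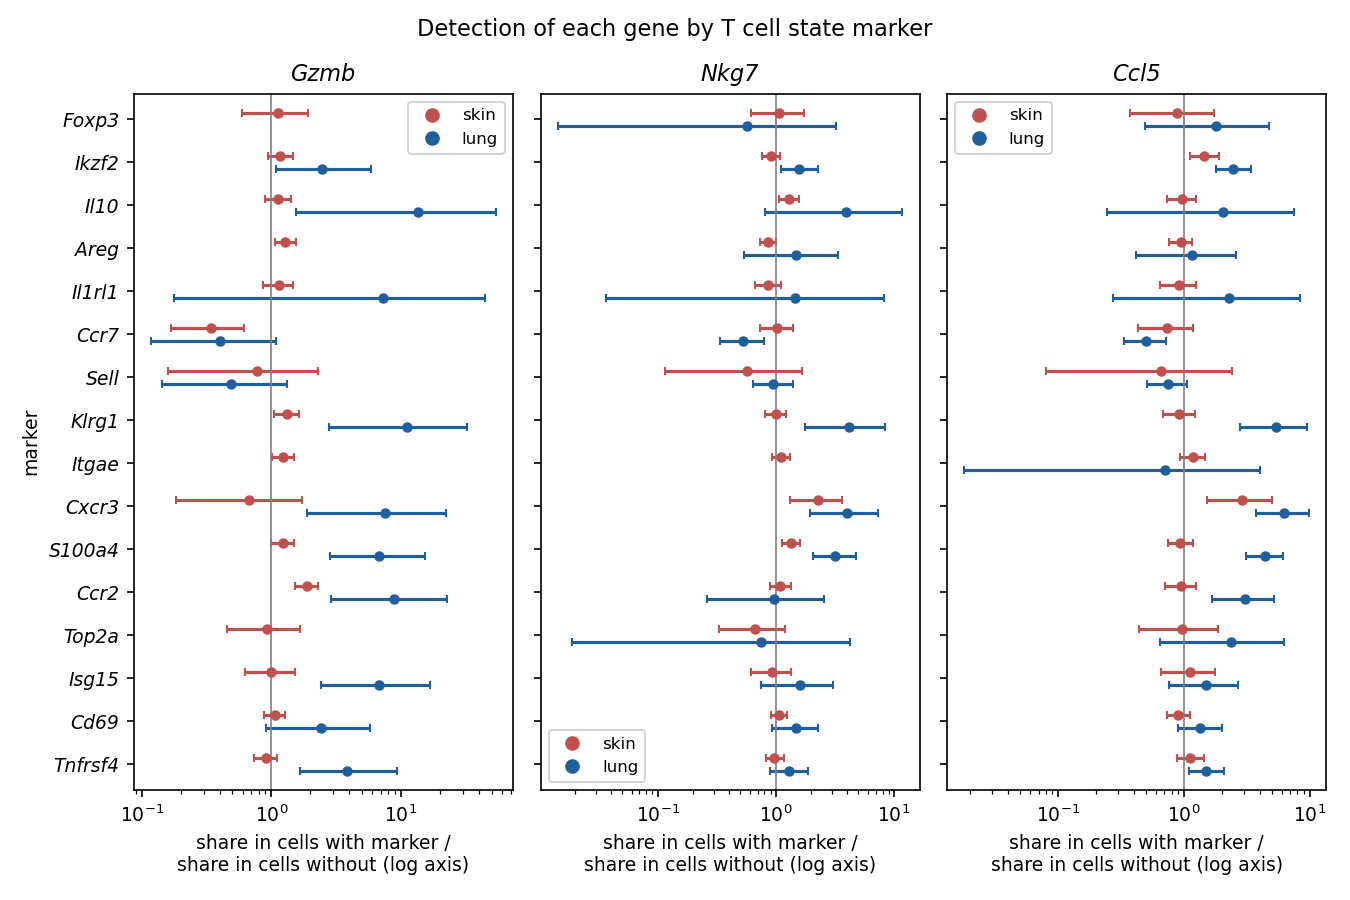
Share of cells with Gzmb, Nkg7 or Ccl5 among cells with a marker, divided by the share among cells without it, at 1000 UMIs per cell on a log axis, for skin (upper point of each pair) and lung (lower point), with exact 95% intervals. The 16 markers found in at least 40 cells of each library are drawn, and a ratio of 0 is not drawn. The lung ratios for Klrg1, Cxcr3 and S100a4 lie well above 1 for all 3 genes, and those of skin for Klrg1 and S100a4 are at most 1.33. For Cxcr3 the skin ratios are 2.25 (1.33 to 3.59) for Nkg7, 2.89 (1.52 to 5.01) for Ccl5 and 0.674 (0.183 to 1.74) for Gzmb.

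Detection of 2 genes in the same cell was set against the product of their shares, at 1000 UMIs per cell. In skin all 3 intervals of the ratio of observed to expected cells included 1 in this draw of UMIs. Gzmb and Nkg7 shared 66 cells where 51.2 were expected, a ratio of 1.29 (0.996 to 1.64). For Gzmb and Ccl5 there were 25 cells against 29.1 expected, 0.859 (0.556 to 1.27), and for Nkg7 and Ccl5 53 against 39.9, 1.33 (0.995 to 1.74). Thus 0 of the 3 pairs with an expected count of at least 1 reached 2-fold. Among 7146 genes, 0.336% reached 2-fold with Gzmb, 0.126% with Nkg7 and 0.7% with Ccl5. For cells with all 3 genes the count was 6, with 2 genes 126 and with 1 gene 1223, out of 6012.

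The skin value for Gzmb and Nkg7 moved with the draw of UMIs and with depth. Another random draw gave 1.65 (1.32 to 2.03), 500 UMIs per cell gave 1.86 (1.29 to 2.60) and 1500 gave 1.56 (1.28 to 1.87). Counting only cells with at least 2 thinned UMIs of each gene, added after the data were seen, gave 13 cells where 5.59 were expected, 2.33 (1.24 to 3.98), while Gzmb with Ccl5 stayed at 0.728 (0.0882 to 2.63). Of the 146 skin cells with at least 5 raw Gzmb UMIs, 12 also held at least 5 of Nkg7 and 2 at least 5 of Ccl5.

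In lung the same pairs were found together many times more often than the product of their shares. Nkg7 and Ccl5 shared 27 cells where 2.82 were expected, a ratio of 9.58 (6.32 to 13.9). This was the 1 lung pair with an expected count of at least 1, and it reached 2-fold, where 6.37% of 6407 genes did with Nkg7 and 6.79% with Ccl5. Gzmb and Nkg7 shared 10 cells against 0.456 expected, 22.0 (10.5 to 40.4), and Gzmb and Ccl5 10 against 0.581, 17.2 (8.26 to 31.7). Among 7765 lung cells, 6 held all 3 genes, 29 held 2 and 249 held 1. With at least 2 thinned UMIs of each gene, Nkg7 and Ccl5 shared 15 cells where 0.348 were expected. At 5 raw UMIs, 19 lung cells were rich in both Nkg7 and Ccl5, while none of the 6 cells rich in Gzmb was rich in either.

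The lung ratios moved with the draw of UMIs and the choice of cells as well. Another random draw gave 6 shared cells for each Gzmb pair, 15.3 (5.61 to 33.2) with Nkg7 and 10.9 (4.0 to 23.7) with Ccl5, and 10.4 (6.93 to 15.1) for Nkg7 and Ccl5. Without doublet removal Gzmb and Nkg7 gave 14.1 (5.19 to 30.8), and at 500 UMIs per cell 32.7 (10.6 to 76.2) from 5 cells. Over these settings, 1500 UMIs per cell and at least 3 CD3 UMIs, each of the 3 lung intervals lay above 1.

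The lung ratios remained high when cells of other lymphocyte classes were left out. Without any cell with a CD8, NK or gamma-delta UMI, Nkg7 and Ccl5 gave 7.48 (4.36 to 12.0), Gzmb and Nkg7 21.1 (9.11 to 41.6) and Gzmb and Ccl5 16.9 (7.75 to 32.2). Leaving out cells with at least 2 UMIs of a non-T list as well gave 6.13 (2.65 to 12.1), 21.9 (5.98 to 56.2) and 12.6 (2.59 to 36.7). With these cells thinned in a draw of their own the values were 9.38 (4.68 to 16.8), 13.8 (2.84 to 40.2) and 14.7 (4.01 to 37.7). The difference between the tissues in these ratios has no replicate check. A rarer gene allows a larger ratio, and all 3 genes were in a smaller share of lung cells. Among all skin cells with Gzmb, Nkg7 was in 13.9% against 10.5% of the others, and in lung in 37.0% against 1.56%. For Ccl5 by Gzmb the shares were 5.27% against 6.21% in skin and 37.0% against 2.03% in lung. For Ccl5 by Nkg7 they were 8.15% against 5.89% and 20.6% against 1.83%.

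**Figure D5:**
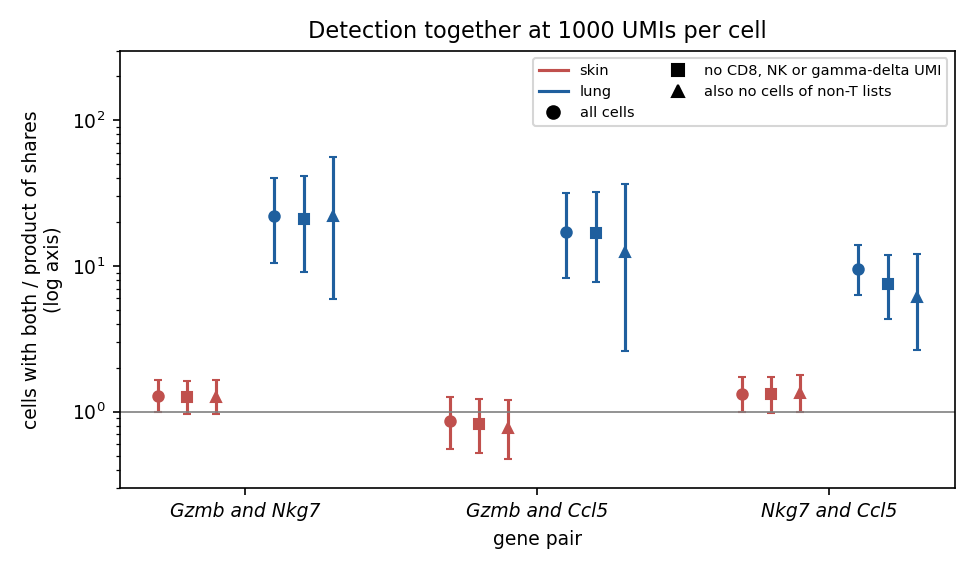
Number of cells in which 2 genes were detected together divided by the number expected from their shares, at 1000 UMIs per cell on a log axis, for skin (left of each group) and lung (right), with 95% Poisson intervals. Circles are all CD3-positive cells, and squares and triangles leave out cells with markers of other lymphocytes and then of non-T cells. The gamma-delta genes could be used for this in lung alone. Rarer genes allow larger ratios. Skin ratios lie between 0.775 and 1.34 and lung ratios between 6.13 and 22.0.

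Genes whose detection was most like that of a member were ranked by the phi coefficient across cells, a description with no test, since cells of a library share depth and free RNA. For Nkg7 and Ccl5 in lung each was the other's closest gene, with phi 0.167. Next to Ccl5 in lung came S100a6, S100a11 and S100a4 (phi 0.114, 0.112 and 0.111), which encode calcium-binding proteins, and Serpina3g, a serine protease inhibitor gene, also at 0.111. S100a4 was in 31.1% of lung cells with Ccl5 against 8.82% of the others. In skin the highest coefficient of each gene was below those printed for lung. The closest gene was Ccr2 for Gzmb (0.0840), Ifng for Nkg7 (0.0680) and Pdk1 for Ccl5 (0.0697). Ifng, the gene of interferon gamma, was in 3.38% (2.13 to 5.08) of skin cells with Nkg7 against 0.970% (0.725 to 1.27) of the others.

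Around the members, 8 lists of granule-related genes held 58 genes, of which 37 reached 20 CPM. Of these 37, 20 lay at least 2-fold on the skin side and 2 on the lung side, and their log2 ratios had a median of 1.18. Over all 5686 genes the counts were 865 and 282 and the median 0.37. With median-of-ratios scaling 14 of 35 lay on the skin side and 3 on the lung side, and without mitochondrial and ribosomal protein genes 16 of 40 and 4. The lists were chosen with results of these data known, and the counts are a description. Genes were counted at 20 CPM in either library, so some entered only through the tissue where they were high. Among those past 2-fold, Serpinb1a, Tnf, Ccr1, Ccr3, Ccl1, Irf4, Prdm1, Zeb2, Il18r1 and Il18rap reached 20 CPM in skin alone. Their place on the skin side follows in part from this rule, which also held for all 5686 genes.

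Among genes of granule storage and release, 4 of 13 lay on the skin side and 1 on the lung side, or 2 and 1 under both other scalings. Of all 5686 genes 15.2% lay on the skin side and 4.96% on the lung side. With median-of-ratios scaling these were 505 and 473 of 5596, and without mitochondrial and ribosomal protein genes 594 and 610 of 6764. Stx11, a syntaxin of granule fusion, stood at 172 CPM in skin against 25.7 in lung, a ratio of 6.67 (6.08 to 7.33). Cst7, which encodes cystatin F, an inhibitor of granule cathepsins, stood at 109 against 20.5 CPM, a ratio of 5.32 (4.78 to 5.93). Srgn, the gene of the granule proteoglycan serglycin, stood at 1647 against 766 CPM, and Vamp7, a vesicle fusion gene, at 56.4 against 21.5. Ctsw, which encodes the lymphocyte protease cathepsin W, was on the lung side, at 28.4 CPM in skin against 64.2 in lung. Genes of granule transport and priming lay within 2-fold, such as Rab27a at 33.6 against 29.6 CPM and Unc13d at 40.2 against 39.3.

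Of 3 counted inhibitors of granule proteases, 2 were at least 2-fold higher in skin, under the other scalings too. The share over all 5686 genes was 15.2%, or 505 of 5596 and 594 of 6764 under those scalings, and 3 genes are few. Serpinb6a stood at 129 CPM in skin against 23.9 in lung and Serpinb1a, an inhibitor of neutrophil-type proteases, at 51.9 against 6.75. Serpinb9, which encodes the inhibitor of granzyme B, was below 20 CPM, with overlapping intervals, at 11.4 (9.72 to 13.3) CPM in skin against 11.5 (10.1 to 13.1) CPM in lung. Of the 7 other granzyme genes none reached 20 CPM. Gzmc came closest, at 19.7 CPM in skin against 2.23 in lung, and 1 skin cell held 120 of its 285 UMIs, together with 7 CD3 UMIs, 14 UMIs of the Treg markers and 6 of the NK list. Its close paralogs can share reads with it, so its level is uncertain.

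Receptors and secreted factors gave few counted genes, with both counted chemokine receptor genes, 1 of 2 death ligand and cytokine genes and 1 of 1 chemokine gene past 2-fold on the skin side, and none on the lung side. Under each of the other scalings 1 receptor gene lay past 2-fold, and with median-of-ratios scaling no chemokine gene reached 20 CPM. For all genes the skin share was 15.2% of 5686, or 505 of 5596 and 594 of 6764 under those scalings, so these small lists carry little weight. Of the receptors, Ccr1 stood at 24.0 CPM in skin against 0.279 in lung, from 348 and 6 UMIs, and Ccr3 at 21.1 against 6.56. Tnf stood at 43.7 against 8.10 CPM, and Fasl, the death ligand gene, at 7.52 against 2.56. Ccl1, a chemokine gene, had 20.5 CPM in skin from 297 UMIs, against 3 UMIs in lung, a ratio of 147 with a counting interval of 49.8 to 716.

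All 8 counted transcription regulators were at least 2-fold higher in skin, or 6 of 8 under each of the other scalings, with none on the lung side. Over all 5686 genes 15.2% were on the skin side, or 505 of 5596 and 594 of 6764 under those scalings. Irf4, Prdm1 and Zeb2 reached 20 CPM in skin alone, and regulators below it in both libraries were not counted. Irf4, needed for effector Tregs, stood at 70.0 CPM in skin against 6.28 in lung, Id2 at 511 against 112, Bhlhe40 at 178 against 42.8 and Prdm1, which encodes Blimp-1, at 29.2 against 6.79. Zeb2 stood at 27.7 against 4.56, Hopx at 79.5 against 26.2, Runx3 at 67.7 against 26.0 and Batf at 145 against 60.0. The T-box genes, which drive granzyme and perforin genes in CD8 and NK cells, were low. Tbx21 stood at 4.21 CPM in skin against 1.35 in lung, and Eomes gave 2 UMIs in skin against 43 in lung, a level 14.5-fold higher in lung with a counting interval of 3.78 to 124.

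Of 8 counted cytokine input genes, 2 lay on the skin side and 1 on the lung side, and the lung count became 2 and 3 under the other scalings. Among all 5686 genes the shares were 15.2% and 4.96%, and under those scalings 473 of 5596 and 610 of 6764 genes lay on the lung side. Il18r1 and Il18rap, the 2 chains of the interleukin 18 receptor, reached 112 and 29.3 CPM in skin cells, against 14.8 and 1.40 in lung cells. Stat5b, which encodes a transducer of interleukin 2 signals, stood at 34.4 in skin against 81.9 in lung. Il2rb, a receptor chain for interleukins 2 and 15, stood at 137 against 230 CPM, within 2-fold in these totals.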

How the data were processed

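The authors deposited raw UMI counts per gene and barcode, with no normalization, from 10x Single Cell 3' v2 libraries, 1 of skin and 1 of lung. The submitters' processing notes name Cell Ranger and mm10 with no version, and the lung matrix comes from software version 3.0.2, per the file headers. A second lung table was not used here. The skin annotation lists 27998 genes and that of lung lists 31053, and 27514 identifiers in both were compared.

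Barcodes under 200 genes or over 10% mitochondrial UMIs were dropped (134 in skin, 89 in lung). Scrublet in scanpy 1.11.5 called 2 skin and 0 lung doublets, too few to have worked, so the 6% of cells with the highest scores were removed (388 and 518). Counts of cells with a CD3 UMI were summed per library and divided by the total (CPM). Ratios of single genes are of plain CPM. Genes with at least 20 CPM were counted past 2-fold on log2 of (CPM + 5). Intervals at 95% are exact Poisson, binomial or Clopper-Pearson, and a count of 0 was read against 3 counts. Scripts were checked on simulated data. Thinning drew 1000 UMIs per cell without replacement with 1 fixed seed. Positions are from GENCODE M21 and promoters from RefSeq for GRCm38.p6. Named genes are the 6 members, the gate genes, genes of 8 granule lists, 20 state markers and the 5 genes most like a member, of which some are printed and 1 is not reported here. Members and lists were chosen with earlier results of these data known.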

Additional observations from a re-analysis of the deposited data

Results flagged for a closer look

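Signals of Gzma, Nkg7, Ccl5 and, from few UMIs, Prf1 appeared in the 282 lung cells without a CD3 UMI at levels above those of the CD3-positive lung cells. As a whole these 282 cells enter no comparison above. Gzma stood at 131 CPM there, against 1.26 CPM in CD3-positive lung cells, and all 82 UMIs lay in 3 cells that also held 37 UMIs of the NK list. Nkg7 stood at 78.2 CPM, with 48 of its 49 UMIs in those 3 cells, against 31.3 CPM. Ccl5 stood at 249 CPM, with 147 of its 156 UMIs in those 3 cells, against 96.9 CPM. Prf1 stood at 9.57 CPM, with 5 of its 6 UMIs in those 3 cells, against 3.82 CPM. The same 3 cells held 2 Gzmb UMIs. The 67 skin cells without a CD3 UMI held no Gzma and 1 cell with an NK-list UMI.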

How the results depend on the processing

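No paired analysis was possible because there is 1 library per tissue, and no library could be left out. The log2 ratio of Gzmb, 4.77, was 4.40 with median-of-ratios scaling, 4.37 without mitochondrial and ribosomal protein genes and 5.11 as the mean of per-cell CPM. That of Nkg7, 2.42, was 2.05 and 2.03 under those 2 scalings and 1.45 in cells with a Foxp3 UMI. It was 2.86 without cells of other types (gamma-delta genes used in lung alone), 2.81 as the mean of per-cell CPM and 2.66 at 1000 UMIs per cell. That of Ccl5, 0.43, was 0.056, 0.029, 2.20, 1.31, 0.57 at 1000 UMIs and −0.14 without the richest cell. The other settings kept these values, and all kept Prf1 and Gzma, within the counting interval, although Gzma rests on 1 skin UMI. Genes at least 2-fold higher in skin numbered 505 in place of 865 with median-of-ratios scaling, and in lung 473 and 610 in place of 282 under the 2 scalings. Granule list genes higher in lung numbered 4 in place of 2 without mitochondrial and ribosomal protein genes. Lung pairs at 2-fold numbered 2 in place of 1 at 1500 UMIs per cell, where 3 pairs could be counted, and skin pairs 1 in place of 0 with at least 2 thinned UMIs of each gene. In lung that last setting left no pair with an expected count of 1. Gzmk stayed near the limit of 3 counts and gave no ratio, and Gzma and Prf1 gave none in cells with a Foxp3 UMI. Scaling changes the totals alone, the richest cell explains the last Ccl5 value by construction, and for the other settings the cause was not tested. Depth limits the shares in both tissues. In lung Gzmb rests on few cells, 27 at 1000 UMIs and 65 at full depth. The stromal-rich comparison rests on 73 skin and 76 lung cells, sets that overlap the CD3-positive cells.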
